A study of Mus musculus with 10 samples.

Results

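The genes described here are 7 of the 19 genes that encode GABA-A receptor subunits, taken by name from the 54532 genes of the count table: Gabra2, Gabra3, Gabra4, Gabra5 and Gabra6, which encode alpha subunits, Gabrb2, which encodes a beta subunit, and Gabrd, which encodes the delta subunit. All 7 were counted in every mouse, and all 7 passed the filter on low counts. Brain RNA came from 10 Slc20a2-HO mice, homozygous for a knockout of the phosphate transporter gene Slc20a2. Of these, 6 received FTY720 (fingolimod), which acts on sphingosine-1-phosphate receptors, by repeated intraperitoneal injection from a young age, and 4 received placebo, the DMSO solvent alone. Both arms thus carried the knockout, no wild type library was analysed here, and all comparisons are between knockout mice. The name of each mouse has a letter for the arm (F or P) and then the digit 1 or 3, whose meaning is not explained in the sources used here. The digit 1 was carried by 4 mice (F1-622, F1-624, F1-918 and P1-623) and the digit 3 by 6 mice (F3-609, F3-612, F3-908, P3-612, P3-904 and P3-907), so that digit 1 holds only 1 placebo mouse. Digit 3 holds 3 mice of each arm.

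GABA-A receptors are pentameric chloride channels opened by the inhibitory transmitter GABA. The alpha subunit largely sets where a receptor is found and how it responds: alpha-6 is made almost only by cerebellar granule cells, while alpha-2, alpha-3, alpha-4 and alpha-5 are mainly subunits of the forebrain, with alpha-5 rich in the hippocampus and alpha-4 in the thalamus, striatum and dentate gyrus. The beta-2 subunit is common across the brain, and the delta subunit pairs with alpha-6 in the cerebellum and with alpha-4 in the forebrain, in receptors outside the synapse that carry a tonic current.

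Counts per mouse summed to between 14772745 and 18303981. Between the digits 28.4% of all genes tested were called, and the marker counts stand beside that share. In the digit 3 mice, 14 of 16 markers of cerebellar granule cells and 11 of 12 of Purkinje cells rose against digit 1. These counts include markers that were close to 0 in digit 1, such as Cbln3, Fat2 and Pcp2, which passed the filter on low counts through their digit 3 values. With markers below 1 CPM in digit 1 set aside, where CPM is the count scaled to the library size by TMM, 12 of 14 and 10 of 11 rose, and with those below 2 CPM set aside, 11 of 13 and 9 of 10 rose; both levels were chosen after the values were seen. Hindbrain Hox genes, of which 8 of 15 listed passed the filter on low counts through their digit 3 values, are given by their levels only. In the same comparison 12 of 17 markers of cortex and hippocampus fell and 1 rose, and 9 of 12 striatal markers fell. The tissue label of every mouse is brain. Defining cerebellar markers were at or near 0 in the digit 1 mice: Pcp2, a Purkinje cell gene, was at 0 to 0.236 CPM there and at 20.1 to 33.7 CPM in digit 3. Cbln3, a granule cell gene, was at 0.413 to 1.14 CPM in digit 1 and at 251 to 334 CPM in digit 3. Summed over the lists, granule cell markers took 514 to 552 CPM in digit 1 and 1662 to 1785 CPM in digit 3, and Hox genes 0.0590 to 0.420 against 13.1 to 23.6 CPM. The part of these differences in the results below was not tested, and in bulk tissue fewer cells of a type and less RNA per cell cannot be told apart. The targeted gene, Slc20a2, had 89 to 294 counts in every library; it was at 13.9 ± 1.85 CPM (SD, n = 6) in digit 3 and 8.25 ± 1.44 CPM (SD, n = 4) in digit 1, and the whole-gene count does not separate the exons.

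Most of the subunit genes lie in clusters (positions on GRCm38, the same in the deposited table and in GENCODE M21 for all 7 members). Gabra6 (ENSMUSG00000020428, chromosome 11 from 42306437 to 42321072, minus strand) lies near Gabrb2 (ENSMUSG00000007653, chromosome 11 from 42419757 to 42629028, plus strand). Gabra2 (ENSMUSG00000000560, chromosome 5 from 70957597 to 71095849, minus strand) and Gabra4 (ENSMUSG00000029211, chromosome 5 from 71569749 to 71658308, minus strand) stand between Gabrg1 and Gabrb1. Gabra5 (ENSMUSG00000055078, chromosome 7 from 57407672 to 57510059, minus strand) lies beside Gabrg3. Gabra3 (ENSMUSG00000031343, from 72432681 to 72656848 on the minus strand of chromosome X) lies between Gabre and Gabrq, and Gabrd (ENSMUSG00000029054, chromosome 4 from 155384980 to 155398112, minus strand) stands alone. Gabra4 overlaps the start of Gabrb1, and Gabra5 also overlaps other annotated genes, on the opposite strand. The library kit does not mark strand, so reads in those overlaps could belong to either gene, and the counts of Gabra4 and Gabra5 are uncertain to that extent. Gabra3 overlaps 4 annotated genes, each with a mean of 2.4 counts or less. Gabra2, Gabra6, Gabrb2 and Gabrd overlap no other gene.

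The 250 bases before the transcription start were read from RefSeq (GRCm38.p6) for 6 of the 7 members; Gabrd is not in that table. The 2 windows below belong to Gabra6, the member with the largest difference between the digits, and Gabra2, a forebrain alpha subunit, and neither meets an annotated exon. They are given on the strand of the gene. Capitals mark the letters TTGGCA, read on either strand, which nuclear factor I (NFI) proteins recognise. NFI proteins are known to act on Gabra6 in cerebellar granule cells.
Gabra6, chr11:42321073-42321322, minus strand: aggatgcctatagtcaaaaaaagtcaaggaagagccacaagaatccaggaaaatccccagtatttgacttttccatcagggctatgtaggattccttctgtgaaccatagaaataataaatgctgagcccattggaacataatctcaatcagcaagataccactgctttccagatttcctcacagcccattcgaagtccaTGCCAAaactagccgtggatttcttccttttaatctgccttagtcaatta
Gabra2, chr5:71095850-71096099, minus strand: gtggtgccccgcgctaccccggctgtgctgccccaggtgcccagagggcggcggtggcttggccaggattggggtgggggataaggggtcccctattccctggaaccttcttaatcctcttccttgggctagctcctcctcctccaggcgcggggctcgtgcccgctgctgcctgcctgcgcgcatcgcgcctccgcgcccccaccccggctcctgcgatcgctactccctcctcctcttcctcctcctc
The Gabra6 window held 1 match, which begins 50 bases before the start, and none of the other 8 member windows held one. Of all 32851 windows of this length, 12.3% held the letters. The Gabra6 window was poor in CG pairs, with 2, and had a GC content of 40.8%, against 18 pairs and 70.0% in the Gabra2 window. The median over all windows was 6 pairs and 52.4%. The Gabra3 windows held 0 CG pairs, the Gabra4 window 12 and the Gabra5 window 9. A match is a run of letters and not a measured binding site.

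The first comparison was between the digits, with the arm as a covariate. Gabra6 was higher in digit 3, the forebrain alpha subunits were lower on average by amounts that did not pass the threshold, and Gabrb2 and Gabrd were higher on average, also without passing it. Of 17665 genes tested, 28.4% were called at an adjusted p under 0.05 in either direction, and 14.2% had values that did not overlap between the digits. Among the 7 members, Gabra6 alone was called and did not overlap, and none of the other 6 was called. Beside these background shares, a count of 1 in 7 is not a result about the members as a group. The median log2 fold change was -0.13 over the members and -0.01 over all genes tested.

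**Figure D1:**
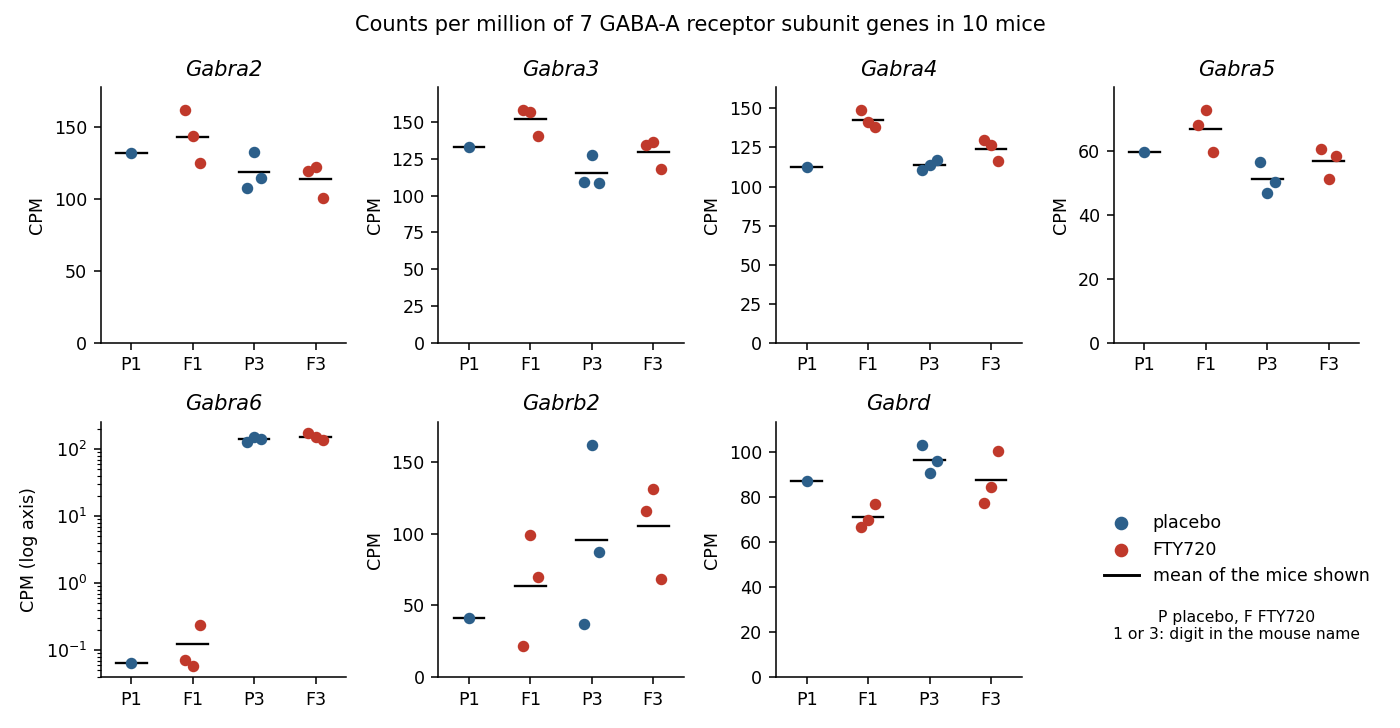
CPM (vertical axes, logarithmic for Gabra6 and linear from 0 for the others) of the 7 subunit genes in each of the 10 mice, grouped by arm (P placebo, F FTY720) and by the digit in the name (1 or 3); points are mice and bars are means. Gabra6 sits at 0.240 CPM or less in all 4 digit 1 mice and at 130.0 CPM or more in all 6 digit 3 mice, while the other 6 genes overlap between the digits.

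Gabra6 had 1, 1, 4 and 1 counts in F1-622, F1-624, F1-918 and P1-623, or 0.0709, 0.0590, 0.240 and 0.0655 CPM. In the digit 3 mice it was at 172, 153 and 137 CPM in F3-609, F3-612 and F3-908 and at 130.0, 154 and 143 CPM in P3-612, P3-904 and P3-907. The groups were far apart, with no library between them. Summed over libraries, 15303 counts in digit 3 against 7 in digit 1 gave a ratio of 1333 after allowing for depth, with a 95% interval (exact binomial, counting error only) of 647 to 3317. F1-918 held 4 of the 7 counts, and without it 3 counts were left in digit 1 and the ratio was 2288, with an interval of 782.7 to 11090. Gabra6 passed the filter on low counts through its digit 3 values, so it had to differ between the digits and its call is given as a description of these levels. The fitted log2 fold change was 10.32, and 11.02 without F1-918, and it depends on the prior count used for so few counts; on log2(FPKM + 0.1) and log2(FPKM + 1) the difference was 8.75 and 5.86. Within digit 3 the gene was steady, with a mean of 148 ± 14.9 CPM (SD, n = 6).

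The genes whose pattern over the 10 mice was nearest to Gabra6, by the root mean square difference of centred log2 CPM, were Cbln3, which encodes a cerebellin of granule cells (0.446), Fat2, a protocadherin of granule cells (0.767), and Cnpy1 (a difference of 1.0). Cbln3 and Fat2 are also in the granule cell marker list. Fat2 was at 0.30 to 0.425 CPM in digit 1 and at 91.5 to 192 CPM in digit 3.

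Gabra2, the alpha-2 subunit, was at 162, 144, 125 and 132 CPM in the digit 1 mice F1-622, F1-624, F1-918 and P1-623. In F3-609, F3-612 and F3-908 it was at 119.6, 122 and 101 CPM, and in P3-612, P3-904 and P3-907 at 108, 133 and 115 CPM. Only P3-904 among the digit 3 mice exceeded the lowest digit 1 value, and the groups therefore overlapped. The log2 fold change was -0.27 (SE 0.10, 95% interval -0.50 to -0.05, adjusted p = 0.0681). The exact permutation p, unadjusted, was 0.0238.

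Gabra3, the alpha-3 subunit, was at 158, 157, 141 and 133 CPM in F1-622, F1-624, F1-918 and P1-623. It was at 134, 137 and 118 CPM in F3-609, F3-612 and F3-908 and at 109, 128 and 108.5 CPM in P3-612, P3-904 and P3-907. The lowest digit 1 library, P1-623, lay below the F3-609 and F3-612 values. The log2 fold change was -0.22 (SE 0.09, adjusted p = 0.0711).

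Gabra4, the alpha-4 subunit, ranged from 113 to 149 CPM in digit 1 and from 111 to 129.6 CPM in digit 3, and its log2 fold change was -0.13 (SE 0.08, adjusted p = 0.237). Its lowest digit 1 value was the placebo mouse P1-623, and the 3 FTY720 mice of digit 1, at 138 to 149 CPM, lay above all 6 digit 3 mice. Gabra5, the alpha-5 subunit, was at 68.1, 72.5, 59.6 and 59.6 CPM in F1-622, F1-624, F1-918 and P1-623 and at 46.8 to 60.5 CPM in digit 3. Only F3-609 passed the lower digit 1 values. Its log2 fold change was -0.23 (SE 0.10, adjusted p = 0.0868).

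Gabrd, the delta subunit, was at 66.6, 69.7, 76.9 and 87.0 CPM in F1-622, F1-624, F1-918 and P1-623. It was at 77.2, 84.5 and 100.4 CPM in F3-609, F3-612 and F3-908 and at 103, 90.5 and 95.8 CPM in P3-612, P3-904 and P3-907. The highest digit 1 value was the placebo mouse, which lay above 2 digit 3 mice. The log2 fold change was 0.25 (SE 0.10, 95% interval 0.04 to 0.46, adjusted p = 0.0706).

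Of the 6 members other than Gabra6, 4 had an unadjusted p under 0.05 (Gabra2, Gabra3, Gabra5 and Gabrd), where 41.4% of all genes did, and the exact permutation test of each gene gave the same 4. That exact count was 0 when F1-622 or F1-624 was left out, and 2 when P3-612 was left out. The calls also moved with the treatment of gene length and GC content. With trends on both removed from each library, a choice made after the data were seen, 6 members were called, with log2 fold changes of -0.69 for Gabra2, -0.39 for Gabra3, -0.39 for Gabra4, -0.24 for Gabra5 and 0.48 for Gabrd, and Gabrb2 was not. The share of all genes called in that fit was 24%. With the trend on length alone removed, Gabra2 at -0.41 (adjusted p = 0.0058) and Gabrd at 0.36 (adjusted p = 0.00506) were called beside Gabra6, and so were 30.8% of all genes. The slope of the libraries on GC content, in log2 units per 10 percentage points, ran from -0.057 to 0.247 in digit 1 and from -0.291 to 0.060 in digit 3, and the GC content of the 7 genes ran from 38.4% in Gabra2 to 54.8% in Gabrd. The part of these slopes in the differences was not tested beyond that removal. No alternative turned the direction of a member in this comparison.

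**Figure D2:**
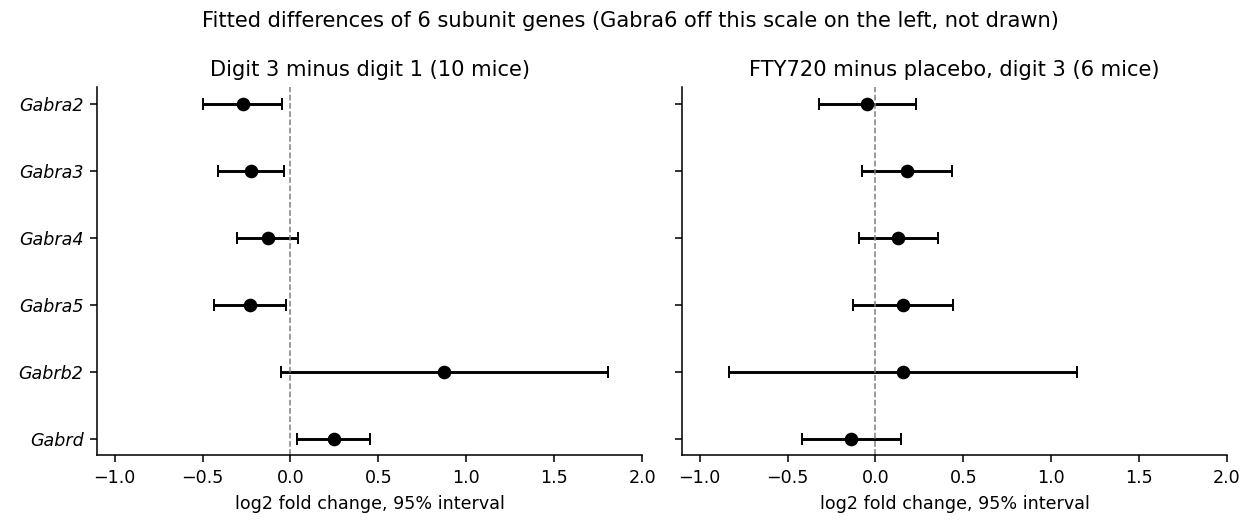
Fitted log2 fold changes (horizontal axes) of 6 subunit genes with 95% intervals, for digit 3 against digit 1 (left, 10 mice) and for FTY720 against placebo within digit 3 (right, 6 mice); Gabra6 is not drawn. On the left Gabra2, Gabra3, Gabra4 and Gabra5 lie below 0 and Gabrb2 and Gabrd above it, and on the right all 6 intervals include 0.

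Gabrb2, the beta-2 subunit, behaved unlike the other members, since it varied widely between mice of the same digit and the same arm. It was at 21.8, 98.8, 69.8 and 41.4 CPM in F1-622, F1-624, F1-918 and P1-623. It was at 116, 131 and 68.6 CPM in F3-609, F3-612 and F3-908 and at 37.0, 162 and 87.3 CPM in P3-612, P3-904 and P3-907. The lowest and highest digit 3 values were both placebo mice, and the highest library of all was 7.40 times the lowest in CPM. The log2 fold change between the digits was 0.88 (SE 0.43, 95% interval -0.05 to 1.8, adjusted p = 0.141). Its SD of log2 CPM over the 10 mice was 0.904, and only 1.62% of 14784 protein-coding genes varied more, whereas the SD of Gabra2, Gabra3, Gabra4, Gabra5 and Gabrd was between 0.152 and 0.215.

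The level of Gabrb2 moved with a property of the libraries. For each library, the slope of the centred log2 CPM values on gene length was taken over 14754 protein-coding genes that are not GABA-A subunit genes, with GC content in the same fit. The slope, in log2 units per doubling of gene length, ran from -0.182 in F1-622 to 0.163 in P3-904, which were also the libraries lowest and highest in Gabrb2. Over the 10 libraries Pearson's r between the slope and Gabrb2 was 0.980 and Spearman's rho 0.988. Each had a permutation p of 2e-05, the smallest that the random pairings used can give. Without F1-622 and P3-904 r was 0.983. Within the 6 digit 3 libraries it was 0.987 (exact permutation p = 0.00278, the smallest that 6 libraries can give), while the 4 digit 1 libraries were too few. The relation was computed for the 7 members only, after the Gabrb2 values had been seen. How many other genes follow the slope as closely is not known from it. Pearson's r lay between -0.452 and 0.488 for the other 6 over 10 libraries. Within the 6 digit 3 libraries it was 0.845 for Gabra3, 0.839 for Gabra6, 0.773 for Gabra2, 0.588 for Gabra4, -0.391 for Gabra5 and -0.771 for Gabrd, with exact permutation p-values, unadjusted, from 0.025 for Gabra6 to 0.467 for Gabra5.

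**Figure D3:**
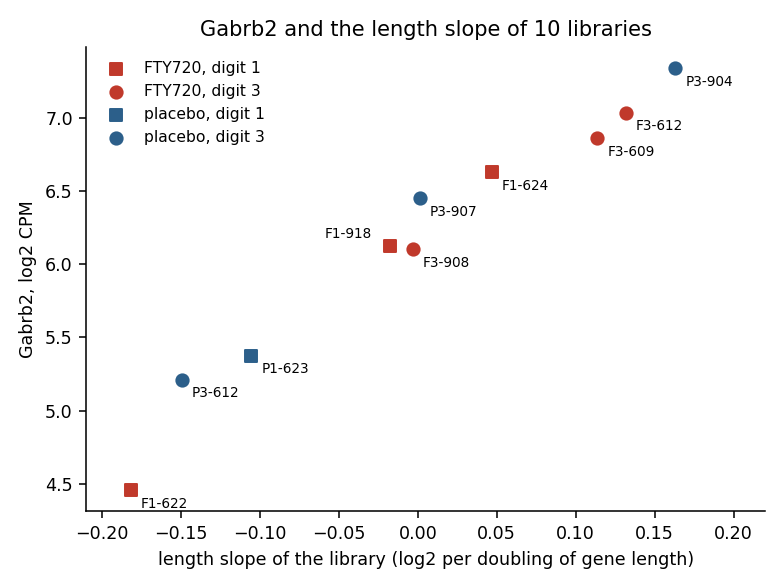
Gabrb2 in log2 CPM (vertical axis) against the slope of each library on gene length (horizontal axis, log2 units per doubling of length), 1 point per mouse, coloured by arm, squares for digit 1 and circles for digit 3. The points rise from F1-622 at 4.46 to P3-904 at 7.34 along one line that mice of both arms and both digits share (r = 0.980).

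Removing the trend on length from each library lowered the Gabrb2 SD only from 0.904 to 0.840, and removing trends on GC content and length lowered it to 0.799, with F1-622 lowest and P3-904 highest each time. The genes with the most similar pattern were Slc9a7, a sodium and proton exchanger, at a root mean square difference of 0.0921, then Zbtb37 at 0.142 and Klf12 at 0.154, both zinc finger proteins. Slc9a7 spanned 3.19 to 29.7 CPM, a 9.32-fold range. What makes these genes vary together was not tested. With no filter on low counts, Gabrb2 was called at a log2 fold change of 0.85 with an adjusted p of 2.01e-10 in a fit that called 15.4% of all genes, while its values overlapped between the digits as before.

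The genes nearest in pattern to the remaining members differed from these by much less in level between mice. For Gabra2 they were Epha5, Kcns2 and Ap2b1 (root mean square differences of 0.0595 to 0.0836), and for Gabra3 Pcdh19, Epha5 and Plppr4 (0.0543 to 0.0684). Epha5, an ephrin receptor, thus stood near both. For Gabra4 they were Topors, Kat14 and Herpud2 (0.0595 to 0.0644), for Gabra5 Dcaf12l1, the glycine receptor gene Glra2 and Vstm2a (0.0570 to 0.0783), and for Gabrd Hdhd5, Slc39a13 and Pank4 (0.0650 to 0.0745).

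To compare levels between genes, the deposited FPKM values were used, which are counts per length and library size. In digit 1 the order was Gabra3 at 37.1 ± 3.18, Gabrd at 25.8 ± 3.02, Gabra4 at 22 ± 2.60, Gabra5 at 21.6 ± 2.18, Gabra2 at 18.2 ± 2.12, Gabrb2 at 9.0 ± 5.22 and Gabra6 at 0.0432 ± 0.0348 FPKM (SD, n = 4). The ranges of Gabrd and Gabra4, of Gabra4 and Gabra5 and of Gabra5 and Gabra2 overlapped, although Gabra5 exceeded Gabra2 in each of the 4 mice. In digit 3 Gabra6 came first at 59.0 ± 6.26 FPKM (SD, n = 6), above every other member in all 6 mice. Gabrd at 31.6 ± 3.23 and Gabra3 at 30.9 ± 3.29 FPKM followed and could not be ordered, since 3 of 6 mice had each order. Gabra4 at 19.4 ± 1.29, Gabra5 at 18.0 ± 1.79, Gabrb2 at 15.6 ± 7.06 and Gabra2 at 15.1 ± 1.52 FPKM overlapped from one to the next.

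The shares of the 7 members in their summed FPKM do not depend on the library scaling. Gabra6 made up 31.1% ± 1.30 (SD, n = 6) of the sum in digit 3, where it ranged from 30.1% to 33.6%, and 0.0327% ± 0.0267 (SD, n = 4) in digit 1. Gabra3 took 16.3% in digit 3 against 27.7% in digit 1, Gabra4 10.2% against 16.4%, Gabra5 9.53% against 16.1% and Gabra2 7.96% against 13.6%. Gabrd took 16.9% against 19.4% and Gabrb2 8.06% against 6.64%. A share must fall where another rises, so these shares are given as a description, with no test.

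**Figure D4:**
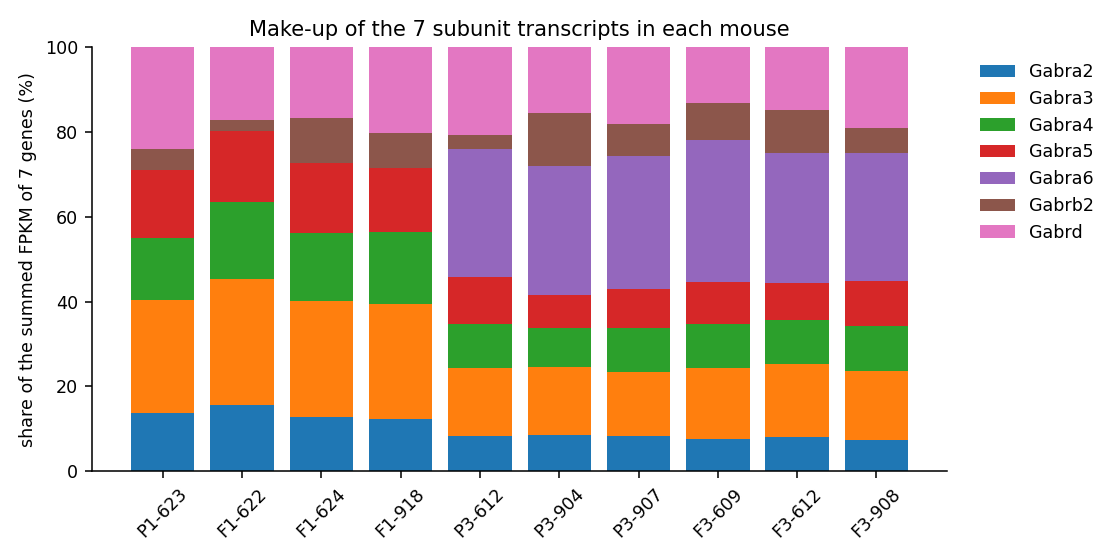
Share of each of the 7 subunit genes in their summed FPKM (vertical axis, percent, stacked from 0 to 100) in each mouse, digit 1 mice at the left and digit 3 mice at the right. Gabra6 fills 30.1% to 33.6% of each digit 3 bar and is too small to see in the digit 1 bars.

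The shares were therefore also taken over the other 6 members without Gabra6, a choice made after the values were seen. These shares are tied to each other too. Gabrb2 and Gabrd had higher mean shares in digit 3, so the summed share of the alpha subunits had to fall. The p-values below are thus not tests of single genes. In CPM, Gabra2 and Gabra3 overlapped between the digits and were not called. Gabra3 fell from 27.7% ± 1.35 (SD, n = 4) in digit 1 to 23.6% ± 1.24 (SD, n = 6) in digit 3, with no overlap (exact permutation p = 0.00476, two-sided, unadjusted, the smallest that the 210 regroupings of 10 mice can give). Gabra2 fell from 13.6% ± 1.45 to 11.5% ± 0.674 (exact permutation p = 0.00476), although the highest digit 3 mouse, at 12.31%, stood just below the lowest digit 1 mouse, at 12.33%. Gabra5 was at 16.1% ± 0.832 and 13.8% ± 1.82 (exact permutation p = 0.0429, unadjusted) with overlapping groups, and its p was between 0.0635 and 0.119 without F1-622, F1-624, F3-609, F3-612, P1-623, P3-904 or P3-907. Gabra4, at 16.4% in digit 1 and 14.9% in digit 3, Gabrd, at 19.4% and 24.4%, and Gabrb2, at 6.64% and 11.7%, overlapped too, with exact permutation p-values of 0.0714, 0.081 and 0.11.

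Other genes of GABA signalling were compared between the digits as lists, and their counts stand beside the 28.4% of all genes called. Among 17 partners of the receptor at the synapse, 2 rose and 4 fell, and the 3 largest changes among these 6 were those of Hap1, which takes part in receptor transport (-0.60, adjusted p = 0.00187), the GABARAP relative Gabarapl1 (-0.48, adjusted p = 0.00156) and Lhfpl4, which binds the receptor at inhibitory synapses (-0.33, adjusted p = 0.0152). Of 9 genes for GABA synthesis, packing, uptake and breakdown, 1 fell, the vesicular transporter Slc32a1 (-0.31, adjusted p = 0.0226). Among 6 genes of GABA-B receptors and their partners, Kctd8 (0.60) and Kctd12b (0.53) rose and Gabbr1 (-0.21) fell. Of 5 chloride transporter and channel genes, Slc12a2, which brings chloride into cells, rose by 0.74 (adjusted p = 0.000256).

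The study asked what FTY720 does in these mice. Within digit 3, where each arm has 3 mice, no member passed the threshold between FTY720 and placebo. Over 17656 genes the share called was 0%, with 7.27% at an unadjusted p under 0.05. DESeq2 called 5 genes and edgeR with no filter on low counts called 134 of 34281, none of them a member. None of the 7 members had an unadjusted p under 0.05, and all 7 had overlapping arms, where 12.9% of all genes did not overlap. With 3 mice against 3 an exact permutation test cannot go below 0.1, and the members' values were between 0.2 and 0.7.

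In these 3 and 3 mice the mean Gabra6 level was 154 ± 17.6 CPM under FTY720 and 142 ± 12.2 CPM under placebo, and the log2 fold change was 0.12 (95% interval -0.15 to 0.39, adjusted p = 0.778). Gabra3 had the smallest p of the 7, with 129.6 ± 10.3 against 115 ± 10.9 CPM (SD, n = 3 each) and a log2 fold change of 0.18 (95% interval -0.08 to 0.43, adjusted p = 0.673). Gabra4 was at 124 ± 6.83 against 114 ± 3.29 CPM, with an interval of -0.09 to 0.35. The interval of Gabra5 was -0.13 to 0.44, that of Gabra2 -0.32 to 0.23 and that of Gabrd -0.42 to 0.14. Gabrb2, at 105 ± 32.5 against 95.3 ± 62.7 CPM, had the widest interval of the 7, -0.83 to 1.15. The median log2 fold change over the members was 0.13, and over all genes tested -0.00489.

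As shares of the summed FPKM of the 7 members within digit 3, Gabra2 was at 7.61% ± 0.386 with FTY720 and 8.31% ± 0.215 with placebo, and Gabra3 at 16.8% ± 0.49 and 15.7% ± 0.562 (SD, n = 3 each). The arms of these 2 shares did not overlap and those of the other 5 did, where 12.9% of single genes did not overlap. Shares are tied to each other, so these are given as a description, with no test. In CPM the arms of both genes overlapped.

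No list of the other genes held a call within digit 3. The summed levels of the glial, striatal, Hox and general neuron lists did not overlap between the arms, and those of every other list did. Of single genes 12.9% did not overlap, and the sums were not tested. Glial markers took 5806 to 5990 CPM with FTY720 and 6574 to 7320 CPM with placebo (2 of 13 higher with FTY720). Striatal markers took 779.6 to 911 against 976 to 1073 CPM (1 of 12 higher), and Hox genes 13.1 to 17.3 against 18.6 to 23.6 CPM (0 of 10 higher). General neuron markers took 6999 to 7179 against 7269 to 7574 CPM (3 of 10 higher). Granule cell markers overlapped, at 1662 to 1785 against 1673 to 1718 CPM. The part of these differences in the members' values was not tested.

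Over all 10 mice with no covariate, no gene was called and 2.61% had an unadjusted p under 0.05. Gabra4 was the only member among these, with 133 ± 11.5 CPM in the 6 FTY720 mice against 114 ± 2.74 CPM in the 4 placebo mice (mean ± SD) and a log2 fold change of 0.23 (SE 0.09, unadjusted p = 0.0298, adjusted p = 0.9999, edgeR). The FTY720 values ran from 116.5 to 149 CPM and the placebo values from 111 to 117 CPM, with 1 FTY720 mouse, F3-908, below the highest placebo mouse. Since 3 of 6 FTY720 mice and 1 of 4 placebo mice had the digit 1, the arm and the digit are partly mixed in this comparison. With the digit as a covariate the background share was 12.8%, and Gabra4 stood at 0.19 (SE 0.08, unadjusted p = 0.032, adjusted p = 0.367). Gabra6 turned from -0.47 (SE 1.5) without the digit to 0.12 with it, neither past the threshold, and without the digit it was at -2.33 with limma-voom, -2.04 on log2(FPKM + 0.1), -1.38 on log2(FPKM + 1) and between -0.88 and -0.21 with 1 mouse left out. Whether the effect of FTY720 differed between the digits could not be settled, because its digit 1 side rests on 1 placebo mouse. The fitted difference of the effect (digit 3 minus digit 1, log2, edgeR) ran from -0.75 for Gabra6 to 0.15 for Gabrd over the members.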

How the data were processed

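The authors deposited raw counts per gene and mouse and a table of FPKM values, which they made from these counts, the gene length and a library total that is not the column total. The submitters' processing notes list CASAVA 1.8, fastp, HISAT2 2.0.5, featureCounts 1.5.0-p3 and DESeq2 1.20.0 with GRCm38; the annotation release and strand setting are not given in the sources used here. Genes were kept by filterByExpr, scaled by TMM and tested with edgeR 4.0.16 in R 4.3.3 (quasi-likelihood test), with Benjamini-Hochberg adjustment over all genes tested. Log2 CPM used a prior count of 2. Single values were compared by two-sided exact permutation tests, and correlations by permutation. DESeq2 1.42.0 and limma 3.58.1 (on FPKM with pseudocounts of 0.1 and 1, and voom) served as alternatives, beside other scalings, no filter, covariates, trend removal and each mouse left out. On simulated data, 200 genes were changed by 2 on the log2 scale, with no trend on gene length added. For the digits, 187 were recovered with 9 false calls among 17386 genes. Within digit 3, 188 were recovered with 7 false calls among 17331 genes. The length slopes of the real libraries ran from -0.182 to 0.163. Between the digits, the members other than Gabra6 had smaller fitted log2 fold changes, from -0.27 to 0.88. The recovery therefore does not show how changes of that size, or libraries with such slopes, are handled. The members and lists were chosen with earlier results of these data known. The rule for named genes took the 3 largest called changes of each list and, for each member, the 3 most similar protein-coding genes. The granule cell, Purkinje cell, cortex and hippocampus, striatal and Hox lists depart from it. They are given by counts or levels, with Cbln3, Fat2, Neurod1, Pcp2 and Car8 named. The labels do not state that every library is a separate animal (F3-612 and P3-612 share a number), so p-values measure the spread between these libraries. Results for a few other subunit genes are not reported here.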

Additional observations from a re-analysis of the deposited data

Results flagged for a closer look

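Of 28 groups of 4 or 6 mice (each member by arm and by digit), 2 held a library far from the others by Dixon's test at the 95% level, where chance flags about 1 in 20. Among the placebo mice, Gabra6 was at 0.0655 CPM in P1-623, the single placebo library of digit 1, whereas the other 3 lay between 130.0 and 154 CPM (gap over range 0.842). Because Gabra6 passed the filter on low counts through its digit 3 values, this flag restates the difference between the digits and is not a further result. Among the digit 1 mice, Gabra6 was at 0.240 CPM in F1-918 and at 0.0590 to 0.0709 CPM in the other 3 (gap over range 0.934), which is a difference between 4 counts and 1.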

How the results depend on the processing

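No paired analysis was possible because the mice of the 2 arms share only the number 612, and nothing ties same-numbered mice together. Between the digits, Gabra6 passed the filter on low counts through its digit 3 values, so its calls say nothing of stability; its fitted log2 fold change was 11.02 without F1-918. The number of members called, 1 as reported, was 2 with DESeq2 (Gabrd, adjusted p = 0.0471, with 32.4% of all genes called), 2 with no filter on low counts (Gabrb2), 3 after removal of the trend on gene length and 6 after removal of those on both length and GC content; the cause of these differences was not tested. It was between 1 and 3 with each mouse left out, 2 without P3-612 (Gabra5) and 3 without P3-904 (Gabra2 and Gabra3). The exact count of single values under 0.05 was 4 of the 6 members other than Gabra6, between 0 and 5 with 1 mouse left out (0 without F1-622 or F1-624), and 1 higher in each case with Gabra6 (5, between 1 and 6). The number of all genes called fell from 5010 to 2593 without P1-623 and to 2908 without F3-609. For FTY720 against placebo no setting called a member. Removal of both trends turned signs, within digit 3 for Gabra4 (-0.040) and Gabrd (0.013) and in all mice for Gabra2 (-0.015) and Gabrb2 (-0.017). Gabra6 in all mice turned to 0.12 with the digit as covariate, and was at -0.88 without P1-623 or F3-609. With 1 mouse left out, Gabrb2 lay between -0.22 and 0.76 within digit 3 (-0.22 without P3-612, -0.03 without F3-612) and between -0.20 and 0.61 in all mice (-0.003, -0.07, -0.13, -0.20 and -0.17 without F1-624, F3-609, F3-612, P3-612 and P1-623), and Gabra2 within digit 3 between -0.10 and 0.040 (0.040 without F3-908 or P3-904). The shares of the 7 members, with 5 of 7 under 0.05 throughout, were set by Gabra6 and say nothing of stability. With Gabra6 left out of the sum, 3 of 6 shares had an unadjusted exact permutation p under 0.05, between 2 and 4 with 1 mouse left out. Gabra2 and Gabra3 were among them each time. Their groups did not overlap with all mice, so leaving 1 out could not change that, and it says nothing of stability either. Counting error is small except for Gabra6 in digit 1.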

Other observations

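In the comparison of the digits, which called 28.4% of all genes, the lists of other cell types held the following calls, none of which is read as particular to its list. General neuron markers gave 1 rise and 3 falls of 10, led by Syp (-0.59), Eno2 (-0.41) and Tubb3 (-0.39). Of 13 glial markers 1 rose, the water channel gene Aqp4 (0.55), and 4 fell, with Csf1r of microglia at -0.52 and Aldh1l1 of astrocytes at -0.49. Of 12 vessel, blood and choroid plexus markers 2 fell, Kcnj8 (-0.69) and Ttr (-0.36). Among 10 thalamic markers, Zic1 (1.89) and Slc17a6 (0.25) rose and Gbx2 (-0.75) fell; Zic1 and Calb2 are on the granule cell list too.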
